A study of Mus musculus with 18 samples.

Results

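Regions of trimethylation of histone 3 lysine 27 (H3K27me3) that were found in bone marrow-derived macrophages (BMDM) of WT mice and not in those of mdx mice are described here. On chromosomes 1 to 19, peaks from the 3 lists were joined wherever they shared 1 bp or more, and the members were chosen by the presence of a WT peak and the absence of any mdx peak in the merged region. This selected 2302 of 21894 regions with a WT peak, or 10.5%, out of 36072 merged regions in all. In the pattern names used here, I stands for a region with a peak and U for one without, in the order WT, mdx, mdxTLR4-/-. Of the 2302 members, 661 also had a mdxTLR4-/- peak (IUI) and 1641 did not (IUU). "Lost" is used below for the missing mdx peak only, because a peak list holds no value for mdx where no peak was called.

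BMDM are grown from marrow in medium that contains macrophage colony-stimulating factor, here for 7 days, and these cells were not stimulated. The mice were male and WT (labelled C57BL6), mdx (Dmdmdx-4Cv, without functional dystrophin) or mdxTLR4-/- (dystrophin-deficient and without the receptor TLR4, labelled mTLR4 and Bl6/Bl10). Each genotype had 2 H3K27me3 ChIP libraries, and H3K27ac had 2 for WT, 2 for mdx and 1 for mdxTLR4-/-. The labelled age of the H3K27me3 mice was 12 to 13 weeks for WT, 14 to 15 for mdx and 16 to 17 for mdxTLR4-/-, and that of the H3K27ac mice was 19 to 20, 21 to 22 and 23 weeks. The labelled ages rise by 1 week from each sample to the next, from 6 to 23 weeks over all 18 samples, and are given as labelled. Neither age nor labelled strain can be told apart from genotype, nor age from the mark. Replicates were merged before peaks were called, so there is 1 list for each mark and genotype, no spread between mice and no test between genotypes. All intervals are 95% intervals over regions (Wilson for shares, order statistics for medians) and cover counting error only.

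H3K27me3 is laid down by the Polycomb repressive complex PRC2 and is known for the silencing of genes of other lineages and of developmental regulators. It often forms broad domains over CpG-rich gene starts, while acetylation of the same lysine (H3K27ac) marks active promoters and enhancers. The labelled cell type was checked on fixed markers. A H3K27ac peak lay within 1 kb of the start of 11 of 12 macrophage genes in each genotype, with Csf1r missing in mdx and Cebpb in the other genotypes. None of the B cell, T cell, erythroid, neutrophil, mast cell, dendritic, stromal or muscle markers had one, and H3K27me3 lay over the starts of 5 of 5 stromal, 4 of 5 T cell and 3 of 4 B cell markers in WT BMDM. No start of a macrophage marker lay in a lost region.

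The following sequences show what kinds of gene start lay in lost regions. Each is the 250 bases before the start, 5' to 3' on the strand of the gene, from RefSeq promoters of the GRCm38.p6 build (the assembly that mm10 names), and capitals mark CpG dinucleotides. Of the 80 protein-coding genes that started in a lost region, 61 were in the promoter table. Their median was 5 CpG in 250 bases, against 6 over all 31218 promoters of the table and 10 over the 3783 matched genes that started in regions of all 3 genotypes. The first gene, Pafah2 (chr4:134396070-134396319, plus strand), had 13 CpG, the most of the 6 genes that were taken by read count and found in the table. H2-Oa (chr17:34092129-34092378, plus strand) had 1 CpG and the scavenger receptor gene Marco, which was added after its values were seen (chr1:120505025-120505274, minus strand) had 0. Each of these stretches lay entirely in a lost region.
Pafah2: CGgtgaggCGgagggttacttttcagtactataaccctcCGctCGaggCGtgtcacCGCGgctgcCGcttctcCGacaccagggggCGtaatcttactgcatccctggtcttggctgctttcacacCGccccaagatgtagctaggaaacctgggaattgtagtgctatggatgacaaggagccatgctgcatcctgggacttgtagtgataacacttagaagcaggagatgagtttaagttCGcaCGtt
H2-Oa: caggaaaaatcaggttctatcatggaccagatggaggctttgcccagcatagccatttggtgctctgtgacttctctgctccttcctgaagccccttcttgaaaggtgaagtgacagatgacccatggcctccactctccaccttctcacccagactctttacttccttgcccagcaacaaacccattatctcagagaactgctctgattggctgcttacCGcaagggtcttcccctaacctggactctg
Marco: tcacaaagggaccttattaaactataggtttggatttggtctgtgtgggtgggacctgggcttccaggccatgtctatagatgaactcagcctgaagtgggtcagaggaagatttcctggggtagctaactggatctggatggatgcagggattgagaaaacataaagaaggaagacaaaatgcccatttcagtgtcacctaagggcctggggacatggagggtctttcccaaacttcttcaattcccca

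A second pair is shown because their genes respond to infection, and was chosen after their values were seen. Here capitals mark a motif, searched on both strands. In Oas1g (chr5:120887614-120887863, minus strand) the letters GAAANNGAA, of the kind bound by interferon-response factors, matched 2 times with overlap within 18 bases of the start. They matched in 7.14% of all promoters of the same length. In Cxcl1 (chr5:90890995-90891244, plus strand) the letters GGAATTTCC, of the kind bound by NF-kappaB, matched 1 time, 70 to 62 bases before the start, and in 0.285% of all promoters. A match describes letters only.
Oas1g: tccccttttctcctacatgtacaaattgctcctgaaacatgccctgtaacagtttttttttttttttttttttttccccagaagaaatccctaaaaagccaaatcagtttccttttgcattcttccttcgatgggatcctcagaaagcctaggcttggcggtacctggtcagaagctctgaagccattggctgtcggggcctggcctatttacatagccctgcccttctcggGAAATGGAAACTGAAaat
Cxcl1: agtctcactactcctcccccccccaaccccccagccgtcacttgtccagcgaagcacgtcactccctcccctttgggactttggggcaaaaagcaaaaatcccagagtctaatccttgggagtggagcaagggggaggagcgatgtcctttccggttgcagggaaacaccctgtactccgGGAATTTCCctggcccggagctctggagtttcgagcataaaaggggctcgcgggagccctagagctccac

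Lost regions were small and weakly marked in WT BMDM. Their median length was 3800 bp and they held a median of 70 WT reads (69 to 71), against 9200 bp and 187 WT reads (184 to 191) in regions of all 3 genotypes. The median WT density was 20.6 reads per kb of peak in IUI regions (20.3 to 20.9), 19.1 in IUU regions (18.9 to 19.3), 20.3 in regions missing only in mdxTLR4-/- (IIU) and 25.6 in regions of all 3 genotypes. All lost regions together held 2.16% of the WT reads in regions and 3.32% of their length. The share lost fell with the reads in the region, from 31.5% (29.4 to 33.6) of 1836 regions under 60 WT reads to 7.55% (6.74 to 8.45) of 3681 regions with 100 to 149. Of the 8126 regions with 200 or more WT reads, 13 were lost, or 0.160% (0.0935 to 0.274). Only 3 lost regions held more than 1 WT peak, against 4115 of the 17005 regions of all 3 genotypes.

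Without scaling, these reads lay toward the lower end of what was called as a peak in mdx BMDM, and less so with scaling. The 1st percentile of density was 15.5 reads per kb over WT peaks and 18.0 over mdx peaks, and the median of the lost regions in WT was 19.6. For each lost region with 1 WT peak, the WT reads were set beside the reads of mdx peaks within 400 bp of its length. They were above the 1st percentile of those mdx peaks in 1793 of 2299 regions (78.0%) and above the median in 208 (9.05%). With WT reads multiplied by 1.22, the median ratio of mdx to WT density in regions of all 3 genotypes, the shares were 96.3% and 36.9%. On this scale the shares were 98.0% and 40.5% in IIU regions and 98.6% and 57.5% in regions of all 3 genotypes. The part of the detection limit in the loss was not tested. The mdx list was the longest, with 41780 H3K27me3 peaks against 28143 in WT and 36488 in mdxTLR4-/-. With the same number of peaks kept in each list, the densest first, 6739 WT regions had no mdx peak. This setting removed the least dense mdx peaks and left the WT list whole, so a higher count follows from it.

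**Figure D1:**
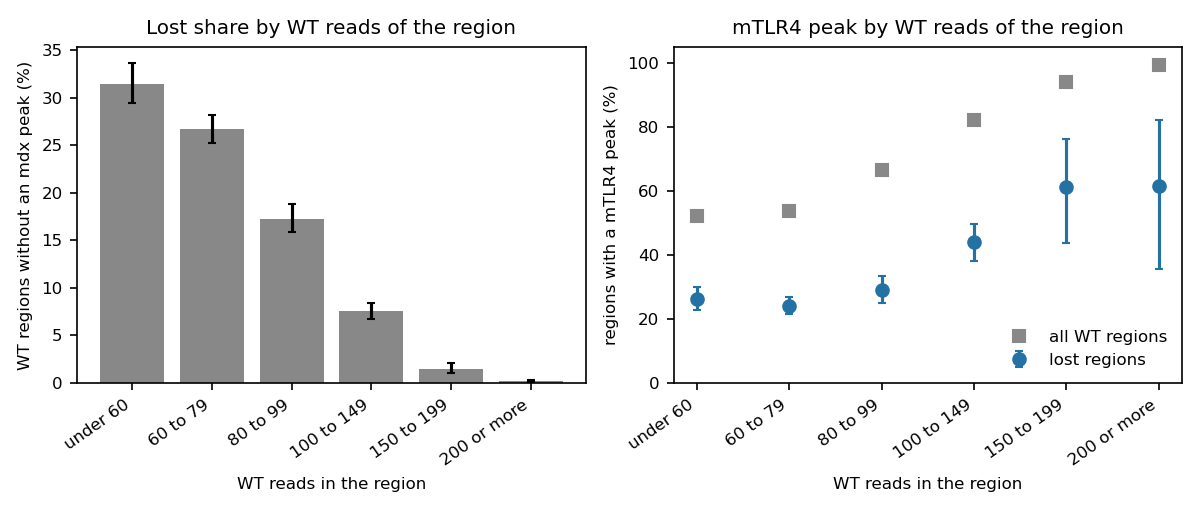
Left, bars show the share of WT regions without an mdx peak (y axis, %) by WT reads in the region (x axis), with Wilson intervals; it falls from 31.5% under 60 reads to 0.160% at 200 or more. Right, circles show the share of lost regions with a mdxTLR4-/- (mTLR4) peak, with Wilson intervals, and squares that of all WT regions; the circles lie below the squares in every band.

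A mdxTLR4-/- peak was present in 28.7% of lost regions (26.9 to 30.6), against 80.7% of all WT regions. The mdxTLR4-/- peaks took part in the merging, and 37 kept WT regions were joined to an mdx peak through one alone. The lower share held at matched reads. Among regions with 60 to 79 WT reads, 24.1% of 965 lost regions (21.6 to 26.9) and 64.4% of 2651 kept regions (62.6 to 66.2) had a mdxTLR4-/- peak. Among those with 100 to 149 reads the shares were 43.9% of 278 (38.2 to 49.8) and 85.4% of 3403 (84.1 to 86.5). In the 661 IUI regions the mdxTLR4-/- peaks covered a median of 60% of the WT peak (56.3 to 62.5), at least 50% of it in 425 regions and all of it in 81. The unscaled density in mdxTLR4-/- was 0.956 times that in WT at the median (0.940 to 0.977), against 0.959 in regions of all 3 genotypes. Both ratios were taken only where a mdxTLR4-/- peak was called, over the length of each list's own peaks. They therefore cannot show that whole regions were marked alike. The median reads were 48 in mdxTLR4-/- and 74 in WT in IUI regions, against 146 and 187 in regions of all 3 genotypes. The covered share of the WT peak was not computed for regions of all 3 genotypes. Which genotype was denser depended on the scaling: 42.8% of IUI regions were denser in mdxTLR4-/- than in WT unscaled, and 64.4% when scaled to the reads in peaks, with a median ratio of 1.08 (1.06 to 1.11) against 1.09 in regions of all 3 genotypes. IUI and IUU regions differed little in length (median 4200 and 3800 bp) and in WT reads (median 74 and 69).

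Of the lost regions, 53.9% had an mdx peak within 5 kb (51.9 to 55.9). The mdx list held 41558 peaks on chromosomes 1 to 19, and no distance for randomly placed regions was computed to set beside this. Lost regions stood further from other WT peaks than shared regions did. The median distance to the nearest other WT peak was 6800 bp (6200 to 7400), against 4800 in IIU regions and 2800 in regions of all 3 genotypes. The median distance to the nearest mdx peak was 4400 bp (4000 to 4600), with quartiles of 1600 and 12400 bp. An mdx peak lay within 5 kb of 62.6% of IUI regions (58.9 to 66.2) and of 50.4% of IUU regions (48.0 to 52.8). Another 87 lost regions had none within 100 kb. At the threshold itself, 31 members abutted an mdx peak, for example a region over Tns1 with 161 WT reads (chr1:74000201-74010000). On the other side, 46 regions were kept although mdx peaks covered 200 bp or less of the WT peak, for example one near Kcnu1 with 197 WT reads and 58 mdx reads (chr8:25899201-25912400). The 167 members within 600 bp of an mdx peak and these 46 regions had medians of 69 and 67 WT reads.

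The lost regions rarely lay over gene starts. The start of a protein-coding gene was in 21 of 661 IUI regions (3.18%, 2.09 to 4.81) and in 51 of 1641 IUU regions (3.11%, 2.37 to 4.06), against 20.1% of all WT regions and 24.9% of regions of all 3 genotypes (24.2 to 25.5). IIU regions were alike in this, with 4.10% (3.4 to 4.93). At matched length the difference to shared regions remained. For WT peaks of over 2 to 4 kb the share was 3.06% of lost regions (2.22 to 4.18) and 13.9% of regions of all 3 genotypes (12.7 to 15.1), and for over 4 to 6 kb it was 3.02% (2.00 to 4.53) and 13.7% (12.6 to 15.0). In all, 58.3% of lost regions lay outside protein-coding genes (56.2 to 60.3), against 47.8% of all WT regions. A further 20.8% lay in introns only and 17.8% over an exon without a start.

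**Figure D2:**
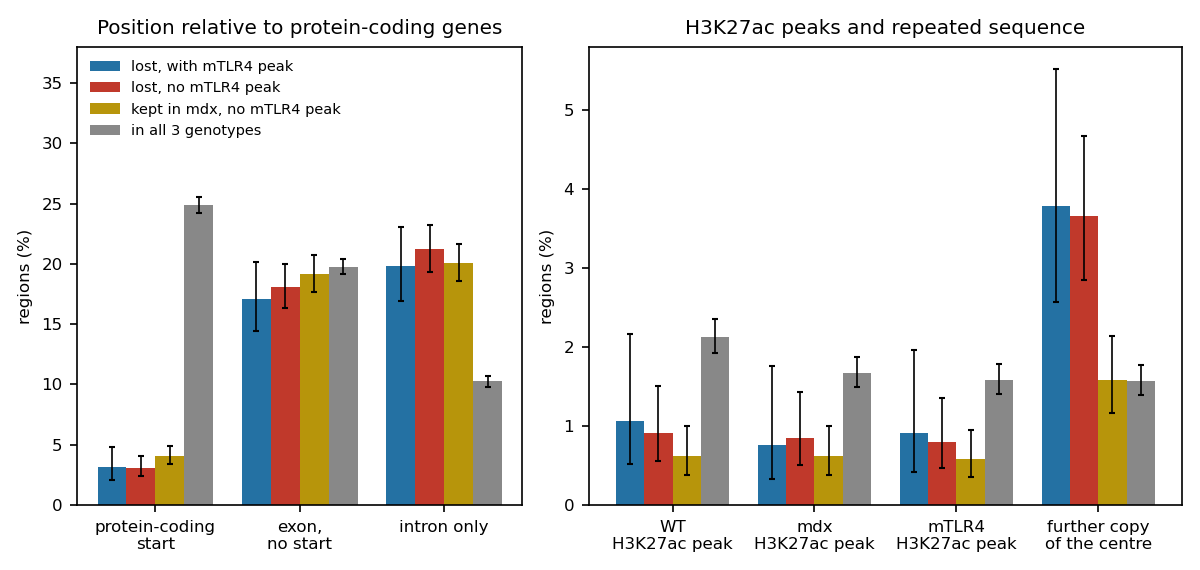
Bars show the share of regions (y axis, %) in 4 classes of WT regions, with Wilson intervals. Both classes of lost regions lie near 3% for gene starts, where regions of all 3 genotypes reach 24.9%, and lie above the other classes for a further copy of the centre (3.78% and 3.66% against 1.58% and 1.57%).

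The protein-coding genes that started in a lost region numbered 80, or 0.385% of 20780, and 27 of them started in IUI regions. The largest IUI region over starts (chr2:83949001-83993800) held the starts of Gm13691, Gm13693, Gm13694, Gm13695, Gm13696, Gm13697 and Gm13698, predicted genes of 1 family. It had 1240 reads in WT and 1216 in mdxTLR4-/- BMDM (27.7 and 30.2 reads per kb), and the nearest mdx peak was 29600 bp away. Next came Cd300ld2, of the CD300 family of myeloid receptors, with 187 WT and 108 mdxTLR4-/- reads (chr11:115010801-115018200). Gm3415 had 143 and 171 reads, and its relative Gm3404 had 106 and 92. Fbxw21, an F-box gene, had 125 and 92 reads. Pafah2, a hydrolase of platelet-activating factor, had 119 and 72. Dock6 had 116 and 73, and Gm27179 had 110 and 37. P2rx1, an ATP-gated ion channel, had 100 and 42 reads, and Crtam, a receptor of cytotoxic lymphocytes, had 96 and 49. The mdxTLR4-/- peaks held fewer reads than the WT peaks in each of these 10 regions but that of Gm3415, while the unscaled density per kb of peak was higher in mdxTLR4-/- in 5 of them (those of Gm13698, Dock6, Gm3404, P2rx1 and Crtam). The central 1 kb of the WT peak had further copies in the genome, as defined below, at Gm13698 (5), Cd300ld2 (3), Gm3415 (6), Gm3404 (6) and Gm27179 (1). None was found at Fbxw21, Pafah2, Dock6, P2rx1 and Crtam.

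**Figure D3:**
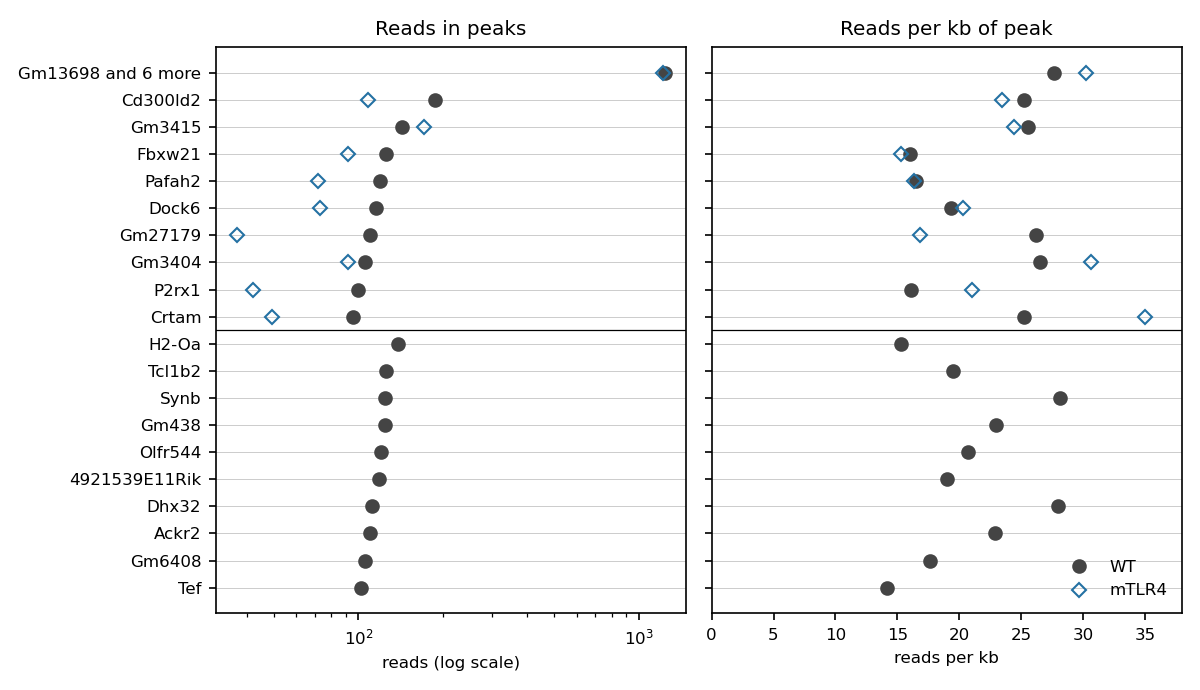
Reads (left, log scale) and reads per kb of peak (right) of the 10 IUI regions (above the line) and the 10 IUU regions (below it) over protein-coding starts with the most WT reads; filled circles are WT and open diamonds mdxTLR4-/- (mTLR4). The diamonds lie between 15.3 and 35 reads per kb, and the circles of the 20 regions between 14.2 and 28.2.

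Among IUU regions the most WT reads over a start were at H2-Oa, which encodes a chain of the H2-O complex that modulates peptide loading of MHC class II. Its region (chr17:34091001-34100000) held 138 WT reads in 9000 bp, and the nearest mdx peak was 5400 bp away. Tcl1b2, of the TCL1 family, had 125 WT reads, Synb, a captured retroviral envelope gene, had 124, and Gm438 also 124. The olfactory receptor gene Olfr544 had 120. Then followed 4921539E11Rik (118), the helicase gene Dhx32 (112), the chemokine scavenger receptor Ackr2 (110), Gm6408 (106) and the bZIP factor Tef (102). Of these IUU regions, those of Synb and Gm6408 had 1 and 5 further copies of their centre. Other genes of myeloid interest, chosen after their values were seen, lay in weaker IUU regions. Marco had 66 WT reads (17.4 per kb), Oas1g 79 (18.8 per kb), the neutrophil protease gene Ctsg 50 (20.8 per kb) and the neutrophil attractant Cxcl1 48 (26.7 per kb). The nearest mdx peak was 8600 bp from the Marco region and 130600 bp from the Cxcl1 region.

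Away from starts, the strongest lost region lay in introns of Ulk4 (chr9:121215801-121240400). It held 3070 WT and 3724 mdxTLR4-/- reads at 125 and 153 reads per kb, while the nearest mdx peak was 1000 bp away. Repeat masking covered 82.9% of its WT peak, and the centre of that peak had 1 further copy. The next IUI regions lay over Kif27 (373 WT and 442 mdxTLR4-/- reads), near Grifin (333 and 345), over Gm16867 (263 and 54) and over Zfp791 (259 and 125). Among IUU regions without a start, one near Fam198a held 442 WT reads, regions beside Entpd4b and Entpd4 held 404 and 375, one in Padi2, a citrullinating enzyme, held 236, and one near Zfp869 held 210. The Padi2 region (chr4:140906401-140916600) lay 57 bp from the start of the gene.

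Several of the strongest lost regions lay in sequence that the reference genome holds more than once. A further copy of the central 1 kb of the WT peak, with at least 800 bases aligned at 95% identity or more, was found for 85 lost regions (3.69%, 3.00 to 4.54), against 1.80% of all WT regions. With 150 or more WT reads it was found for 13 of 44 lost regions (29.5%, 18.2 to 44.2) and for 195 of 10189 kept regions (1.91%, 1.67 to 2.20). Of these 13, 7 lay in 1 stretch of chromosome 14, and without it the shares were 6 of 37 (16.2%, 7.65 to 31.1) and 188 of 10182 (1.85%, 1.60 to 2.13). In 81 of the 85 a copy lay on the same chromosome. Mapping was by Bowtie2 at default settings, which report a single placement for a read that fits several places equally well. The part of repeated sequence in the loss was not tested.

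The group with the most lost regions was such a stretch. On chromosome 14, 19 of the 26 WT regions between 69290601 and 69688200 were lost, 3 of them with a mdxTLR4-/- peak. The stretch runs over Synb, Entpd4 (an intracellular nucleotidase), Gm16867, Gm27179, Entpd4b and Loxl2, and all 19 lost regions had a further copy. Of these, 16 were copies of each other in 8 pairs. Their WT reads ranged from 54 and 56 to 375 and 404 in a pair, and the pair that differed most had 263 and 182. The stretch of 100 bases that follows stands for the pair beside Entpd4 and Entpd4b because it is identical at chr14:69330151-69330250 and chr14:69548401-69548500 (mm10, plus strand).
Entpd4 pair: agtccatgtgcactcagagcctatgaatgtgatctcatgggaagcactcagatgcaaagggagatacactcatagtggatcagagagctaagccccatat
The 7 regions of the stretch that were kept also had fewer reads in the other genotypes, with 3190 WT, 1900 mdx and 1710 mdxTLR4-/- reads. Their median ratio of mdx to WT reads was 0.570 (lowest 0.424, highest 0.821), against 1.16 in regions of all 3 genotypes. The number of copies that the mice of each genotype carried was not measured here.

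The chain of 5 lost regions from Gm6408 to Gm3415 on chromosome 5 also had a further copy for each. The next largest groups lay in sequence without one. A chain of 7 lost regions (gaps of at most 100 kb) among 13 WT regions lay at Spon1 on chromosome 7, with 47 to 140 WT reads each. From Ackr2 to Pomgnt2 on chromosome 9, 6 of 13 WT regions were lost, with 57 to 442 WT reads, and none of these 6 had a mdxTLR4-/- peak. Groups of 6 also lay at Klrg1 and Phc1 on chromosome 6 (among 9 WT regions), at Nuak1 on chromosome 10 (among 13) and at Kcnip1 on chromosome 11 (among 20). In all, 1053 of the 2302 lost regions were in 416 such chains and 1249 stood alone. The share of all WT regions in chains at this gap was not computed, so these counts do not show that lost regions cluster more than others.

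**Figure D4:**
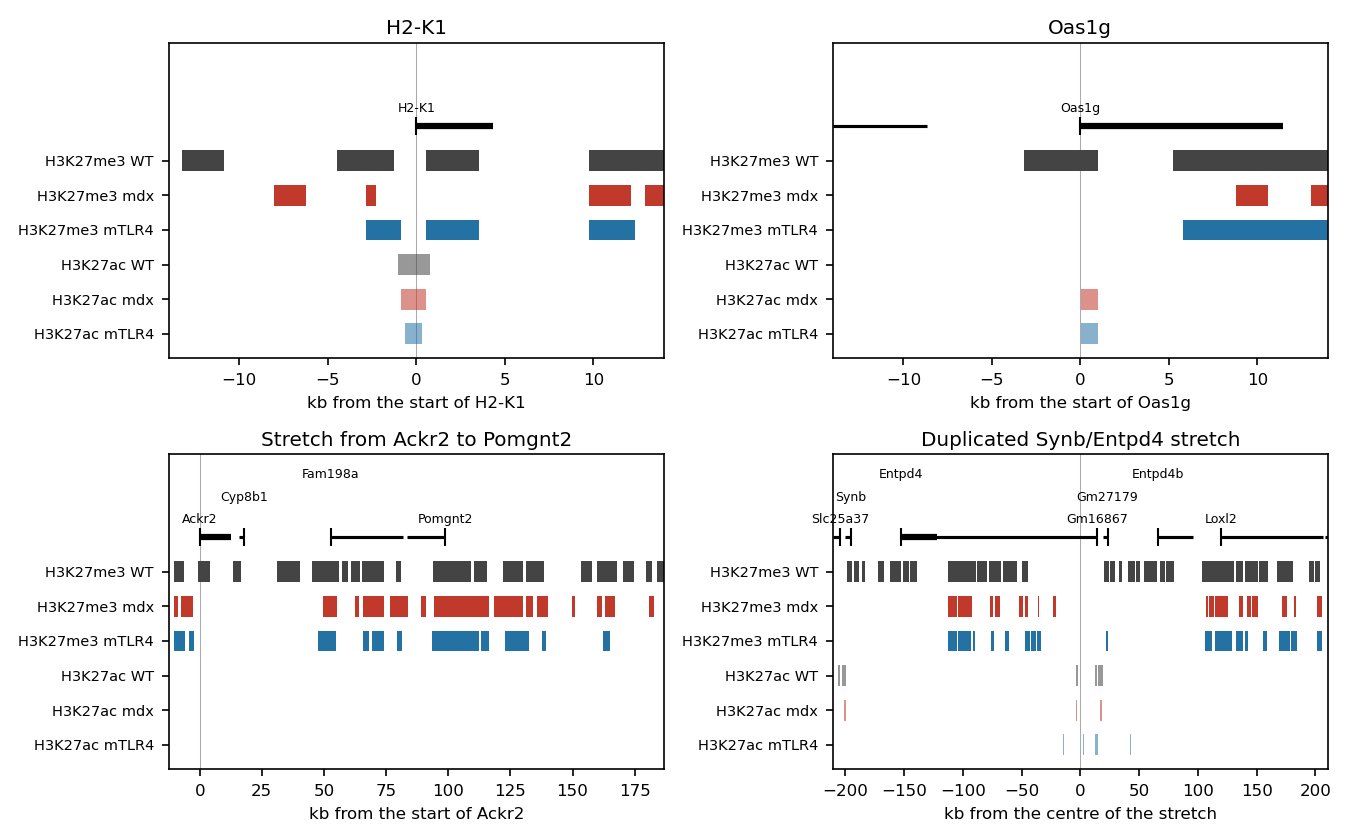
Peaks of the 6 lists (rows, colours by genotype) at H2-K1, Oas1g, the stretch from Ackr2 and the duplicated Synb/Entpd4 stretch, by distance in kb from the named start or from the centre of the stretch; black lines on top are protein-coding genes. At H2-K1 the region after the start is marked in WT and mdxTLR4-/- (mTLR4) alone, at Oas1g the start lies in a H3K27me3 peak in WT alone, and 16 of the 19 lost regions of the duplicated stretch are WT peaks alone.

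H3K27ac was rare in the lost regions, as in H3K27me3 regions at large. A WT H3K27ac peak touched 22 of them (0.956%, 0.632 to 1.44), against 1.83% of all WT regions. A mdx H3K27ac peak touched 19 (0.825%, 0.529 to 1.29), against 1.46%, and a mdxTLR4-/- H3K27ac peak touched 19, against 1.39%. The shares of IUI and IUU regions with a mdx H3K27ac peak were 0.756% (0.324 to 1.76) and 0.853% (0.509 to 1.43). At matched length the intervals overlapped. For WT peaks of over 2 to 4 kb, 1.24% of lost regions (0.752 to 2.03) and 2.09% of regions of all 3 genotypes (1.65 to 2.64) had a H3K27ac peak in any genotype. For WT peaks of over 4 to 6 kb, 2.06% of lost regions (1.25 to 3.37) and 2.34% of regions of all 3 genotypes (1.87 to 2.93) had one. H3K27ac was present in mdx and not in WT in 10 lost regions (0.434%), against 1.00% of all WT regions, and in WT and not in mdx in 13 (0.565%), against 1.37%.

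H3K27ac reads given for single regions are those of whole peaks that touched the region, so some can lie outside it. For the 10 regions with H3K27ac in mdx alone of this pair, they numbered 5 to 23. The lowest count of any peak in the list is 5. The highest lay in an intron of Gse1 (chr8:120483401-120486000), with 57 WT H3K27me3 reads and 23 mdx H3K27ac reads, and the nearest WT H3K27ac peak was 52000 bp away. An intron of Zdhhc14, a palmitoyltransferase, followed with 17 mdx H3K27ac reads and the region over the start of Pafah2 with 10. The mdx H3K27ac peaks at regions near Rsad1, Tldc1 and Gm5788 and in Jade2 had 9, 8, 7 and 7 reads. They overlapped these regions by 200, 400, 400 and 200 bp. A WT H3K27ac peak lay 400 bp from the region near Tldc1, and none lay within 1 kb of the other 9. At Oas1g, a 2'-5'-oligoadenylate synthetase induced by interferon, the WT H3K27me3 region (chr5:120886601-120890800) held 7 mdx and 6 mdxTLR4-/- H3K27ac reads in peaks from 0.01 to 1.01 kb past the start, and the nearest WT H3K27ac peak was 16000 bp away. The mdx H3K27ac peaks at regions near Spocd1 and Rpl10-ps3 had 6 and 5 reads and overlapped them by 1200 and 200 bp.

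In the other direction, a region in Btbd11 (chr10:85412801-85421600) held 22 WT, 0 mdx and 20 mdxTLR4-/- H3K27ac reads, and its centre had 12 further copies. A WT H3K27ac peak of 19 reads overlapped a region near Unc5b by 200 bp, and a mdx H3K27ac peak abutted this region. At H2-K1, a classical MHC class I gene, the lost region (chr17:33996801-33999800) lay in the gene, 547 bp from its start, and held 103 WT and 117 mdxTLR4-/- H3K27me3 reads (34.3 and 39.0 per kb). The H3K27ac peak at the H2-K1 start held 14 WT, 19 mdx and 7 mdxTLR4-/- reads. It overlapped the lost region by 200 bp in WT and abutted it in mdx, so this gene had H3K27ac in each genotype. WT H3K27ac peaks of 9 reads each overlapped regions near 1600014C23Rik and 4930579F01Rik by 400 and 200 bp. Of the 9 regions with H3K27ac in both WT and mdx, Zbp1, a sensor of Z-form nucleic acid, had 25 WT, 25 mdx and 24 mdxTLR4-/- H3K27ac reads, and the interferon-induced GTPase gene Gbp7 had 10, 18 and 6. The Gbp7 region lay 259 bp from the start of the gene.

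Genes named below by their window were chosen after their values were seen. Gene lists were read by 2 measures, a start in a lost region and a window from 5 kb before to 1 kb past the gene that a lost region touched. The window was touched for 953 of 20780 protein-coding genes (4.59%), or 11.2% of the 8492 genes whose window touched any WT region. By start, 0 of 215 homeobox, forkhead, Sox, Gata and T-box genes lay in a lost region although 185 started in a WT region, and 3 windows were touched (1.4%), among them Sox5 and Pax8. For the 42 collagen genes the counts were 0 starts and 7 windows (16.7%), or 20.0% of the 35 windows with a WT region. Collagen genes had a median length of 111 kb, against 17.6 kb over all genes. Col4a2 had the most WT reads of these (121), followed by Col6a4 (94), Col6a3 (84), Col6a2 (79) and Col6a6 (74). In Wnt ligands and Frizzled receptors 3 of 38 windows were touched, in TGF-beta, BMP and GDF ligands 3 of 33, and in matrix proteases and inhibitors 4 of 104, each with 0 starts.

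Immune genes gave small counts. Of 72 interferon-stimulated genes, 1 started in a lost region (Oas1g) and 7 windows were touched (9.72%), or 26.9% of the 26 with a WT region. These were Oas1g, Oas2 (107 WT reads), Oasl1 (84), Gbp7 (76), Gbp8 (75), Gbp6 (63) and Gbp10 (62), of which Gbp6 and Gbp10 were touched by IUI regions with 39 and 47 mdxTLR4-/- reads. Of 58 chemokine ligands and receptors, Ackr2 and Cxcl1 started in a lost region and 5 windows were touched (8.62%), with Ccl25, Cx3cr1 and Ccl1 besides. Of 33 MHC genes, H2-Oa started in a lost region, and the windows of H2-K1 and H2-Eb2 were touched too. No window of 40 TNF superfamily genes, 9 Toll-like receptors or 22 writers and erasers of H3K27 marks was touched. Only 15, 2 and 7 of these windows touched any WT region. Of 70 interleukins and their receptors, 3 windows were touched (Il17ra, Il1r1 and Il17rb). In the other lists, 19 of 413 zinc finger genes, 18 of 372 solute carriers, 14 of 1450 olfactory, vomeronasal and taste receptors, 13 of 135 ion channels, 8 of 104 neurotransmitter receptors, 6 of 69 axon guidance genes, 2 of 43 growth factors and 1 of 16 granule and antimicrobial genes were touched.

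The extracellular matrix list of the study was chosen on these samples and is no independent evidence of a direction. Of its 41 matched genes, 0 started in a lost region and 6 windows were touched (14.6%), 5 of them by IUI regions. These 5 were Loxl2 (182 WT and 67 mdxTLR4-/- reads, within the duplicated stretch), Nid1 (120 and 49), Itga9 (110 and 82), Pcolce2 (56 and 51) and Mmp20 (53 and 27). The other was the IUU region at Tnc (78 WT reads). The other lists of the study were set beforehand by its authors. Of 59 pro-fibrotic genes 0 started in a lost region and 7 windows were touched (11.9%), or 16.7% of the 42 with a WT region. Among them were Acvr1b (117 WT and 61 mdxTLR4-/- reads) and Smad3 (79 WT reads). Of 679 pro-inflammatory genes 3 started in a lost region (Slc2a3, Marco and Cxcl1), or 0.442%. Their windows were touched in 38 cases (5.6%), or 17.4% of the 219 with a WT region. Of 762 anti-inflammatory genes 3 started in a lost region (Ednrb, Crip1 and Steap3), or 0.394%. Their windows were touched in 39 cases (5.12%), or 14.2% of the 274 with a WT region. Over all protein-coding genes the shares were 0.385% by start, 4.59% by window and 11.2% of windows with a WT region. The median gene length was 39.4, 24.9 and 29.9 kb in these lists in the order given, against 17.6 kb over all genes.

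In base composition the lost regions resembled IIU regions and were slightly lower in GC and CpG than regions of all 3 genotypes. The median GC content of the WT peak was 46.8% in IUI and 46.4% in IUU regions, against 46.3% in IIU regions and 47.1% in regions of all 3 genotypes. The ratio of observed to expected CpG was 0.185, 0.190, 0.189 and 0.211 in this order. Over all lost regions it was 0.188 (0.185 to 0.192), against 0.210 to 0.213 as the interval in regions of all 3 genotypes. For WT peaks of over 2 to 4 kb the GC content was 46.6% (46.4 to 46.8) in lost regions and 46.7% (46.5 to 46.8) in regions of all 3 genotypes. The CpG ratio was not compared at matched length. By chromosome, the share of WT regions lost ranged from 8.86% to 12.6%.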

How the data were processed

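Chromatin of untreated BMDM was cut with micrococcal nuclease and precipitated without crosslinking. The submitters' processing notes name CASAVA 1.8, cutadapt 1.15, Bowtie2 2.3.4, SICER 2.0 and the build mm10. The authors merged replicates and deposited 1 peak list for each mark and genotype, called in windows of 200 bp that could be bridged over 600 bp, at an FDR limit of 0.01, in which each peak carries the count of ChIP reads in it. These counts are not scaled for sequencing depth, which is unknown. H3K27me3 reads were mapped by Bowtie2 and peaks called by SICER2 at default settings, and any further filter on duplicate or multiply placed reads is not given in the sources used here.

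Peak ends were read as inclusive. Gene positions came from GENCODE vM21, with the start of a gene as the 5' end of its record. Promoter sequences came from RefSeq (GRCm38.p6) and copies from minimap2 2.31, and samtools 1.23.1, Python 3.11.15, numpy 2.4.6, pandas 2.3.3, scipy 1.17.1 and matplotlib 3.10.9 were used. With 1 list per genotype no test was run. The merging was tested on simulated peaks, and 3000 of 3000 regions came back with the pattern they were made with.

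The members and gene lists were chosen with earlier results of these data known. Regions were named by WT reads: the 10 highest over a protein-coding start and the 5 highest without one in each class, up to 4 genes of each list that start in a lost region, up to 10 with H3K27ac in mdx and not WT, up to 5 with the reverse, the 5 largest chains and the regions nearest the threshold. Regions with H3K27ac were ordered by H3K27ac reads. Regions on chromosome 18 were counted but not named. Alternatives changed peak length, density, list length, merging, overlap, distance, chromosomes, gene starts and H3K27ac limits, and leaving out repeated sequence or the duplicated stretch of chromosome 14 was added after the data were seen.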

Additional observations from a re-analysis of the deposited data

How the results depend on the processing

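Of 52 values recomputed under other settings, 33 moved by less than their interval or stayed within 1.5 times the count, and 19 moved further. The number of lost regions (2302) became 3505 with peaks of at least 2 kb, 1061 with no mdx peak within 5 kb and 5359 for WT peaks less than 50% under mdx peaks. It became 6739 with the same number of peaks in each list, which shortened the mdx list and not the WT list. The share with a mdxTLR4-/- peak (28.7%) became 38.7% with peaks at 1.5 times the 1st percentile of density or more, 23.3% with no mdx peak within 5 kb, 33.5% for single WT peaks, 51.1% for WT peaks less than 50% under mdx peaks and 20.6% where mdxTLR4-/- peaks had to cover at least 50% of the region. The share over gene starts (3.13%) became 4.11% with peaks of at least 2 kb, 4.58% with the density limit, 4.33% for WT peaks less than 50% under mdx peaks, 47.4% with the window around the gene (57.8% of all WT regions) and 6.65% with the starts of all transcripts (26.8%). The share with WT H3K27ac (0.956%) became 2.35% within 1 kb (3.75% of all WT regions) and 0.391% for peaks of at least 10 reads (0.726%). The share with mdx H3K27ac (0.825%) became 1.41% with no mdx peak within 5 kb, 1.74% within 1 kb (2.80%) and 0.391% for peaks of at least 10 reads (0.493%). The cause of these moves was not tested. Without regions that have a further copy, 2217 remained, 28.7% of them with a mdxTLR4-/- peak and 2.71% over a start. Without the duplicated stretch of chromosome 14, 2.89% of lost and 1.68% of all WT regions had a further copy.

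No paired analysis was possible because replicates were merged into 1 list per genotype, and no fit that leaves out a replicate was run for the same reason. A region without an mdx peak can hold mdx reads below the limit of the peak caller.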

Other observations

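On chromosome X, which the choice of regions left out, 4 of 111 WT regions had no mdx peak (3.60%), and 1 of these had a mdxTLR4-/- peak.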
